A study of Arabidopsis thaliana with 13 samples.

Results

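The gibberellin oxidase genes described here are 10 Arabidopsis thaliana genes, chosen by their gene identifiers from the 33033 genes of the deposited table. They are GA20OX1 (AT4G25420), GA20OX2 (AT5G51810), GA20OX3 (AT5G07200), GA3OX1 (AT1G15550) and GA3OX2 (AT1G80340), which make gibberellin, and GA2OX1 (AT1G78440), GA2OX2 (AT1G30040), GA2OX4 (AT1G47990), GA2OX6 (AT1G02400) and GA2OX8 (AT4G21200), which inactivate it. Their transcripts were measured by RNA sequencing of whole seedlings that received 6 h of white light, then 4 days of darkness at 22 °C. The seedlings then spent 4 h in liquid half-strength Murashige and Skoog medium with a compound or a mock. Wild-type Col-0 seedlings were given pifithrin-alpha (PFT-alpha) at 30 µM, ACC at 10 µM, or DMSO at 1‰, called the mock, with 3 libraries each. A DMSO content is listed for the mock only, so whether the PFT-alpha and ACC seedlings received DMSO is not known here. Seedlings of etr1-1 were given PFT-alpha or the mock under the same conditions, with 2 libraries each, and no ACC group of etr1-1 was analysed here. The series describes its replicates as biological, and no label says what the replicate numbers share across groups. ACC is the direct precursor of the plant hormone ethylene, etr1-1 is a dominant allele of the receptor gene ETR1 by which the whole plant loses its ethylene response, and PFT-alpha is known as an inhibitor of the animal protein p53.

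Gibberellins are plant hormones that drive cell elongation, among other places in the hypocotyl of a seedling growing in the dark. The last steps of their synthesis are made by gibberellin 20-oxidases, which turn precursors into the immediate precursors of the active hormone, and by gibberellin 3-oxidases, which make the active hormone itself. Gibberellin 2-oxidases add a hydroxyl group that ends activity: GA2OX1, GA2OX2, GA2OX4 and GA2OX6 act on the active hormone and its immediate precursors, and GA2OX8 on earlier precursors. Cells balance these enzymes by feedback, so that active gibberellin lowers transcripts of several 20-oxidase and 3-oxidase genes and raises those of 2-oxidase genes.

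Levels are given as TPM (transcript abundance divided by transcript length and scaled to the same total in each library, so that genes can be compared), and differences as differences in log2(TPM + 1), a scale that understates changes of genes near or below 1 TPM. Estimated depth was 20.5 to 24.8 M fragments per library in wild type and 25.7 to 29.6 M in etr1-1, without overlap. This difference between libraries cannot be told apart from genotype. A transcript of 1500 bases at 1 TPM rested on 19.9 to 29.3 fragments. The 3 wild-type libraries numbered 3 stood apart: they lay at 74.4 to 87.0 on the first principal component (44.7% of the variance), against -35.2 to -9.5 for the other 10. Transcripts of 4 root hair markers summed to 0.96 to 1.38 TPM in those 3 libraries and to 10.6 to 37.1 TPM in the other 10. The 4 photosynthetic markers summed to 15729 to 19236 TPM in those 3 and to 6192 to 10488 TPM in the other 10. Most of that sum was RBCS1A and LHCA1. LHCB1.1 (225 to 549 TPM in those 3) and CAB3 (394 to 580 TPM) were highest in replicate 3 within each wild-type group. Over all libraries they did not stand apart, with 613 and 625 TPM in etr1-1 mock 2. All 3 floral markers that seedlings should lack were near 0, summing to at most 0.19 TPM. The library labelled etr1-1 mock 1 went against its label. Its level of ERS2, an ethylene receptor gene that ethylene induces, was 46.9 TPM, against 11.04 TPM in etr1-1 mock 2, 45.4 to 50.4 TPM in ACC-treated wild type and 11.5 to 18.6 TPM in wild-type mock. HLS1, a gene needed for the apical hook, gave 104 TPM in that library and 33.8 TPM in etr1-1 mock 2. Differences that use the library labelled etr1-1 mock 1 are therefore given with and without it, and the effect of leaving out wild-type replicate 3 is given for each comparison. In whole seedlings a lower level of a transcript can come from fewer cells of a type or from less RNA per cell, and these cannot be told apart.

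Over all 13 libraries GA2OX6 was the most abundant member, with a mean of 36.5 TPM, followed by GA3OX1 with 25.8 TPM, GA20OX1 with 18.1 TPM and GA20OX2 with 9.21 TPM. GA2OX2 averaged 3.51 TPM, GA2OX8 2.08 TPM, GA2OX4 1.52 TPM, GA20OX3 1.12 TPM, GA2OX1 1.01 TPM and GA3OX2 0.799 TPM. Among these 10 members each step thus had 1 or 2 transcripts well above the others. GA20OX3 and GA2OX1 were near the limit of measurement in some libraries, with as few as 1.1 and 0.9 estimated fragments, while GA2OX2 rested on at least 55.9 in each library. All 10 members passed the filter of at least 1 TPM in at least 2 libraries, which left 21091 genes for testing. GA20OX3 reached 1 TPM in 5 libraries, GA2OX1 in 4 and GA3OX2 in 3, and 3 of the 4 libraries that carried GA2OX1 past the filter were of etr1-1. In wild type GA2OX1 reached 1 TPM only in mock 2 (1.16 TPM), so its inclusion in the tests below rested on its level in etr1-1. None of the 10 overlapped another gene in the TAIR10.1 annotation, and no 50-base stretch of their transcripts occurred elsewhere in the nuclear genome.

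**Figure D1:**
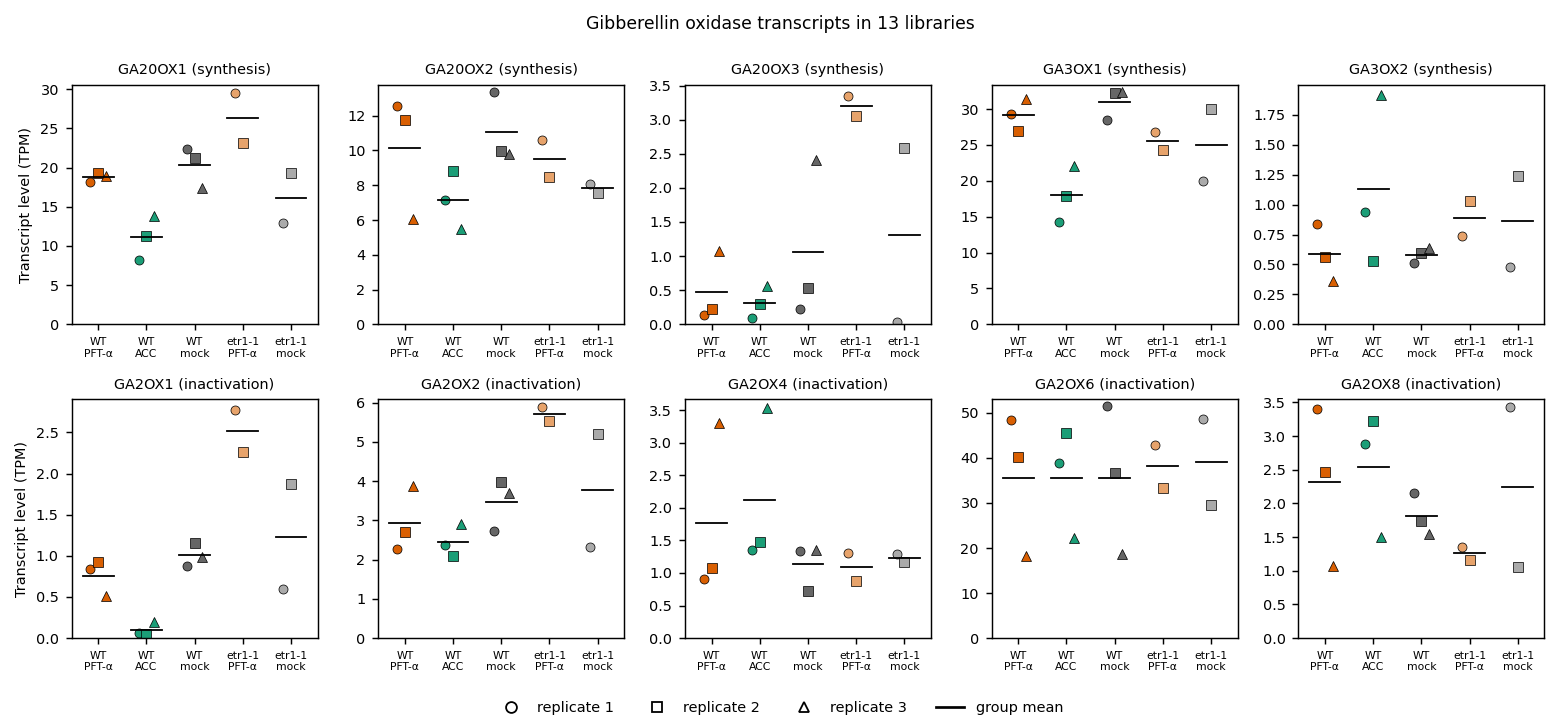
Transcript level in TPM (vertical axes, each starting at 0) of the 10 gibberellin oxidase genes in each of the 13 libraries. Colours stand for the 5 groups, symbols for replicate numbers and horizontal lines for group means. The 3 ACC libraries of wild type lie below the 3 mock libraries in the panels of GA20OX1, GA20OX2, GA3OX1 and GA2OX1, and the triangles of replicate 3 lie lowest in each wild-type group in the panel of GA2OX6.

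The upstream sequences of the 3 members whose transcripts were lower together under ACC (GA20OX1, GA3OX1 and GA2OX1, below) are shown because the ethylene response is carried by transcription factors that bind DNA. GA20OX1 lies on chromosome 4 at 12990851 to 12992585, GA3OX1 on chromosome 1 at 5344388 to 5346342 and GA2OX1 on chromosome 1 at 29511561 to 29513100, all on the minus strand in TAIR10.1, with 2, 2 and 3 exons. Each line gives 250 bases before and 50 bases after the annotated start of the transcript, read 5′ to 3′ on the gene's own strand from the RefSeq TAIR10.1 genome, at chr4:12992536-12992835, chr1:5346293-5346592 and chr1:29513051-29513350 in that order. The other members lie on chromosome 1 (GA3OX2 at 30200466 to 30202349 on the minus strand, and on the plus strand GA2OX2 at 10537457 to 10540044, GA2OX4 at 17698598 to 17701041 and GA2OX6 at 486800 to 489651), chromosome 4 (GA2OX8 at 11302682 to 11306770, plus strand) and chromosome 5 (GA20OX2 at 21055179 to 21056881 and GA20OX3 at 2243553 to 2245339, both minus strand). Capitals mark the matches found.
GA20OX1: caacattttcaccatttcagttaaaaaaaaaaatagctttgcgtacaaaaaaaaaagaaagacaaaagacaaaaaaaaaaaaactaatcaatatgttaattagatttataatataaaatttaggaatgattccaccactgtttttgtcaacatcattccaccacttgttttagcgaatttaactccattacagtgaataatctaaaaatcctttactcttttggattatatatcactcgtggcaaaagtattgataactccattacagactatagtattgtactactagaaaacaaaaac
GA3OX1: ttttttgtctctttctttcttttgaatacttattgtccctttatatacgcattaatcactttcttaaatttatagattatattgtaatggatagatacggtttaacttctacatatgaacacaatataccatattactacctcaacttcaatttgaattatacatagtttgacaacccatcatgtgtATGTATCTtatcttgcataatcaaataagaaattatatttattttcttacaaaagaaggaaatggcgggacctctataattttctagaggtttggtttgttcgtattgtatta
GA2OX1: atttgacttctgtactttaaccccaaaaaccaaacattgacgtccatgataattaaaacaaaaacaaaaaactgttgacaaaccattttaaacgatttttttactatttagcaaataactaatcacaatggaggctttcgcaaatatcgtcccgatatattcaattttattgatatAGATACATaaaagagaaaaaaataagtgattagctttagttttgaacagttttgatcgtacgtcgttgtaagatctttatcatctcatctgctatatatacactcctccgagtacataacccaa
3 motifs were searched on both strands, and they do not overlap one another in these windows. The first was ATGNANCT, the letters known to be bound by EIN3, the transcription factor at the end of the ethylene pathway. It was found in GA3OX1, 63 bases before the start, and in GA2OX1, 74 bases before the start on the other strand. GA20OX1 had no match in this window. ATGNANCT was present in 2 of the 10 members' windows and in 14.8% of the windows of 27443 protein-coding genes. CACGTG, the G-box, was in 1 member's window (GA2OX4) and in 7.68% of all windows. TAACAAA, known from gibberellin-responsive promoters, was in 2 (GA2OX4 and GA2OX8) and in 18.4% of all windows. A match of letters is a description of the sequence and does not show binding.

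ACC was compared with the mock in wild type to see which transcripts follow the ethylene precursor. Under ACC the main transcripts of both synthesis steps were lower, and so was one minor inactivation transcript. GA2OX6, the most abundant of the 5 inactivation members, was not lower. GA20OX1 measured 8.27, 11.3 and 13.8 TPM in the 3 ACC libraries, against 22.4, 21.2 and 17.4 TPM in the 3 mock libraries. The groups did not overlap, and the means were 11.1 ± 2.75 TPM under ACC and 20.3 ± 2.58 TPM in mock (SD, n = 3 each). GA3OX1 measured 14.3, 17.8 and 22.0 TPM under ACC, against 28.4, 32.2 and 32.4 TPM in mock, again without overlap (18.0 ± 3.87 TPM under ACC and 31.0 ± 2.25 TPM in mock, SD, n = 3 each). GA20OX2, the second 20-oxidase by level, measured 7.15, 8.83 and 5.46 TPM under ACC and 13.4, 9.95 and 9.81 TPM in mock. Every ACC library lay below every mock library for this gene too. GA20OX3 gave 0.09, 0.30 and 0.56 TPM under ACC and 0.23, 0.53 and 2.41 TPM in mock, which overlapped. GA3OX2 gave 0.94, 0.53 and 1.92 TPM under ACC and 0.51, 0.60 and 0.64 TPM in mock, overlapping as well.

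Among the inactivation genes GA2OX1 stood lowest under ACC. It measured 0.06, 0.05 and 0.20 TPM in ACC libraries, which is about 1.0, 0.9 and 3.9 estimated fragments, against 0.88, 1.16 and 0.99 TPM (15.1, 23.9 and 18.9 estimated fragments) in mock libraries. The groups did not overlap, but 2 of the 3 ACC values lie under 3 fragments, so the size of the difference is poorly fixed. GA2OX6 measured 38.9, 45.6 and 22.3 TPM under ACC and 51.4, 36.7 and 18.7 TPM in mock, with equal means of 35.6 TPM. GA2OX2 (2.38, 2.08 and 2.92 TPM under ACC, against 2.72, 3.98 and 3.69 TPM in mock), GA2OX4 (1.35, 1.48 and 3.53 TPM under ACC, against 1.33, 0.73 and 1.36 TPM in mock) and GA2OX8 (2.88, 3.23 and 1.5 TPM under ACC, against 2.16, 1.74 and 1.55 TPM in mock) all overlapped between the groups.

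How many of these differences passed a test depended on whether replicate numbers were used and on which libraries set the spread. In the limma fit of all 13 libraries with a mean per group, no member passed an adjusted p of 0.05 (Benjamini-Hochberg over all 21091 tested genes), where 2 genes, or 0.00948%, did. At an unadjusted p under 0.05 that fit held 4 members and 1769 genes. Same-numbered wild-type libraries deviated together, but numbers 1 and 2 correlated as highly with each other (0.29 to 0.54) as with their own number (0.28 to 0.55). Only replicate 3 was thus set apart by the data, and pairing numbers 1 and 2 is an assumption. In the limma fit of the 9 wild-type libraries paired by number, 3 of 10 members passed, all lower. Of all tested genes 5.5% passed in either direction and 3.93% lower. In that paired fit GA20OX1 fell by 0.84 (SE 0.18, adjusted p = 0.0396), GA3OX1 fell by 0.77 (SE 0.12, adjusted p = 0.0131) and GA2OX1 fell by 0.87 (SE 0.19, adjusted p = 0.0471). The adjusted p of the same 3 differences in the all-library limma fit was 0.19, 0.17 and 0.21. That fit takes its spread over all 13 libraries, the library labelled etr1-1 mock 1 included. Without that library the 3 differences were the same, at -0.84, -0.77 and -0.87. The remaining 7 members did not pass in the paired fit. GA20OX2 had a difference of -0.57 (SE 0.18, adjusted p = 0.14), GA20OX3 of -0.51, GA2OX2 of -0.36, GA2OX6 of 0.05, GA2OX8 of 0.30, GA3OX2 of 0.38 and GA2OX4 of 0.49. The 95% interval for GA2OX6 ran from -0.29 to 0.39. In 3 other limma fits the members called, all lower, were 1 with the replicate number as a block over 13 libraries (3.37% of tested genes called), 3 in a reduced fit described below (9.28%) and 3 in a fit with library weights (10.2%). Over the members the median difference was -0.44, against 0.00 over all tested genes. Without overlap between ACC and mock were 4 of 10 members, all lower, against 7.78% of tested genes lower without overlap.

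Leaving out any 1 replicate number from the paired fit changed these calls. Without replicate 1 no member passed (GA3OX1 adjusted p = 0.086), and 153 of all genes did. Without replicate 2 none passed (GA3OX1 adjusted p = 0.298, limma), and 0 of all genes did, with 1918 genes at an unadjusted p under 0.05. Without replicate 3 GA20OX1 alone passed, with a difference of -1.09 (adjusted p = 0.0459), beside GA3OX1 at -0.88 (adjusted p = 0.0536), GA2OX1 at -0.93 (adjusted p = 0.0807) and 637 calls among all genes. For these 3 genes the direction was the same in each of these fits.

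**Figure D2:**
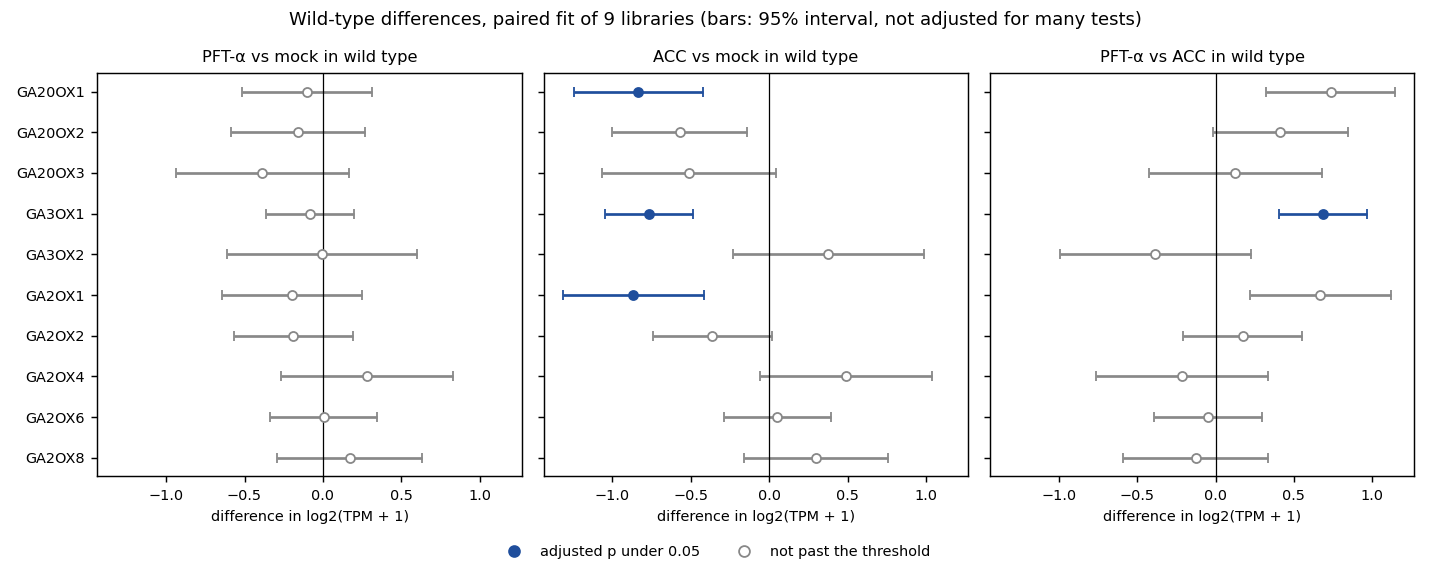
Differences in log2(TPM + 1) of the 10 genes (horizontal axes) between wild-type groups, from the limma fit of 9 libraries paired by replicate number. Points are estimates and bars their 95% intervals, filled blue where the adjusted p is under 0.05. GA20OX1, GA3OX1 and GA2OX1 are filled for ACC against mock, GA3OX1 for PFT-alpha against ACC, and none for PFT-alpha against mock.

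PFT-alpha against the mock in wild type asks whether the compound alone moves the same transcripts. No member passed in any limma fit run, and in the all-library and paired fits no gene of the 21091 tested did (0% in each). At an unadjusted p under 0.05 the all-library fit held 0 members and 147 genes, and the paired fit 0 members and 817 genes. GA20OX1 measured 18.2, 19.3 and 18.9 TPM under PFT-alpha, against 22.4, 21.2 and 17.4 TPM in mock. GA3OX1 measured 29.3, 27.0 and 31.4 TPM under PFT-alpha, against 28.4, 32.2 and 32.4 TPM in mock. Both pairs of groups overlapped, with differences of -0.10 (95% interval -0.51 to 0.31) and -0.08 (95% interval -0.36 to 0.20) in the paired fit. GA2OX6 had a mean of 35.6 ± 15.5 TPM under PFT-alpha and 35.6 ± 16.4 TPM in mock (difference 0.00, interval -0.34 to 0.35). GA2OX1 measured 0.84, 0.93 and 0.51 TPM under PFT-alpha and 0.88, 1.16 and 0.99 TPM in mock, which overlapped as well. The differences of the other members were -0.16 for GA20OX2, -0.39 for GA20OX3, -0.01 for GA3OX2, -0.19 for GA2OX2, 0.28 for GA2OX4 and 0.17 for GA2OX8. All 10 members overlapped between the groups, where 3.65% of tested genes did not. The intervals of the low genes were wide: that of GA3OX2 ran from -0.61 to 0.60 and that of GA20OX3 from -0.94 to 0.17, and differences of such size lie within what these libraries allow. The limma fit with library weights also called 0 members, but it called 606 genes (2.87%), with 3 members and 4542 genes at an unadjusted p under 0.05. Without the 3 replicate 3 libraries no member and 3 genes passed, and the differences of GA20OX1, GA3OX1 and GA2OX6 were -0.21, -0.10 and 0.02.

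PFT-alpha and ACC were also set against each other. GA3OX1 measured 29.3, 27.0 and 31.4 TPM under PFT-alpha, against 14.3, 17.8 and 22.0 TPM under ACC, and in the paired limma fit it was higher under PFT-alpha by 0.68 (SE 0.12, adjusted p = 0.0332). It was the 1 member of 10 to pass, against 2.61% of tested genes in either direction and 1.7% higher. GA20OX1 (18.2, 19.3 and 18.9 TPM under PFT-alpha, against 8.27, 11.3 and 13.8 TPM under ACC) differed by 0.73 (SE 0.18, adjusted p = 0.091). GA2OX1 (0.84, 0.93 and 0.51 TPM under PFT-alpha, against 0.06, 0.05 and 0.20 TPM under ACC) differed by 0.67 (SE 0.19, adjusted p = 0.15). Neither of these passed, although the groups of all 3 genes did not overlap, as was so for 4.89% of tested genes that were higher under PFT-alpha. GA20OX2 had 12.6, 11.8 and 6.07 TPM under PFT-alpha and 7.15, 8.83 and 5.46 TPM under ACC, which overlapped through replicate 3. In the all-library limma fit no member passed and no gene did (0%), with 3 members and 1168 genes at an unadjusted p under 0.05. The adjusted p of GA3OX1 there was 0.52. Without replicate 1, 2 or 3 in the paired fit, no member passed, with 2, 1 and 151 calls among all genes. The reduced fit called 2 members (GA3OX1 and GA20OX1), against 5.24% of tested genes, and the fit with library weights 3, against 5.64%. ACC-treated libraries enter both this comparison and that with the mock, so the 2 sets of differences are not independent.

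The etr1-1 seedlings were compared with wild type under PFT-alpha, a comparison whose differences do not use the library labelled etr1-1 mock 1. The SE and adjusted p of the all-library fit do use it, because that fit takes its spread over all 13 libraries. GA20OX3, GA2OX1 and GA2OX2 were more abundant in the mutant. GA20OX3 measured 3.34 and 3.05 TPM in etr1-1 under PFT-alpha, against 0.13, 0.23 and 1.07 TPM in wild type under PFT-alpha. GA2OX1 measured 2.77 and 2.26 TPM in etr1-1, against 0.84, 0.93 and 0.51 TPM in wild type. GA2OX2 measured 5.90 and 5.54 TPM in etr1-1, against 2.26, 2.70 and 3.87 TPM in wild type. For each of these 3 genes both etr1-1 libraries lay above all wild-type libraries. GA20OX1 was also higher without overlap, at 29.5 and 23.1 TPM in etr1-1 against 18.2 to 19.3 TPM in wild type. GA3OX1 lay just below without overlap, at 26.8 and 24.3 TPM in etr1-1 against 27.0 to 31.4 TPM in wild type. The other 5 members overlapped. With groups of 2 and 3, 31.9% of tested genes did not overlap, 15.3% of them higher in etr1-1 and 16.6% lower.

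GA2OX1 was tested only because etr1-1 libraries carried it past the filter, so its values in this comparison are not independent of that filter. In the all-library limma fit none of these differences passed. The differences were 1.56 for GA20OX3 (SE 0.55, adjusted p = 0.60), 1.00 for GA2OX1 (SE 0.25, adjusted p = 0.39), 0.79 for GA2OX2 (SE 0.27, adjusted p = 0.60) and 0.46 for GA20OX1 (SE 0.22, adjusted p = 0.76). That fit called 6 of all genes (0.0284%), and 3 members and 1438 genes had an unadjusted p under 0.05. A reduced limma fit, which leaves out the library labelled etr1-1 mock 1 and gives wild-type replicate 3 a term of its own, called 3 members higher in etr1-1, against 2.35% of tested genes higher and 3.85% in either direction. In the reduced fit GA20OX3 was higher by 1.84 (SE 0.25, adjusted p = 0.00379), GA2OX1 by 0.99 (SE 0.20, adjusted p = 0.0285) and GA2OX2 by 0.89 (SE 0.17, adjusted p = 0.0223). GA2OX8 had a difference of -0.69 (SE 0.21) and did not pass. In 2 other limma fits none of the 3 passed: with the replicate number as a block over 13 libraries, which called 0 members and 13 genes (0.0616%), their adjusted p was 0.116, 0.166 and 0.158, and without the 3 wild-type replicate 3 libraries (0 members, 11 genes) it was 0.24, 0.27 and 0.27, with differences of 1.83, 0.90 and 0.95. The fit with library weights called these 3, GA20OX1 (0.43) and GA2OX8 (-0.66), against 15.6% of tested genes. The 5 seed storage and oil body markers summed to 4483 and 4405 TPM in etr1-1 under PFT-alpha, against 251, 584 and 1655 TPM in wild type under PFT-alpha. CRA1, CRC and OLEO1 were higher in etr1-1 without overlap, and most of the sum was CRA1 (2962 and 2664 TPM) and CRC (1347 and 1302 TPM). SESA1 (1.35 and 50.6 TPM in etr1-1, against 0.80, 0.41 and 138 TPM in wild type) and SESA2 (47.7 and 221 TPM, against 1.12, 1.16 and 134 TPM) overlapped. None of the 5 was at 0. Photosynthetic markers summed to 7555 and 8835 TPM in etr1-1, against 6926, 7553 and 19236 TPM in wild type. Of these, LHCB1.1 was higher in etr1-1 without overlap (429 and 389 TPM, against 207, 219 and 352 TPM), and RBCS1A, CAB3 and LHCA1 overlapped. The part of these markers, and of the higher estimated depth of the etr1-1 libraries, in the differences between genotypes was not tested.

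**Figure D3:**
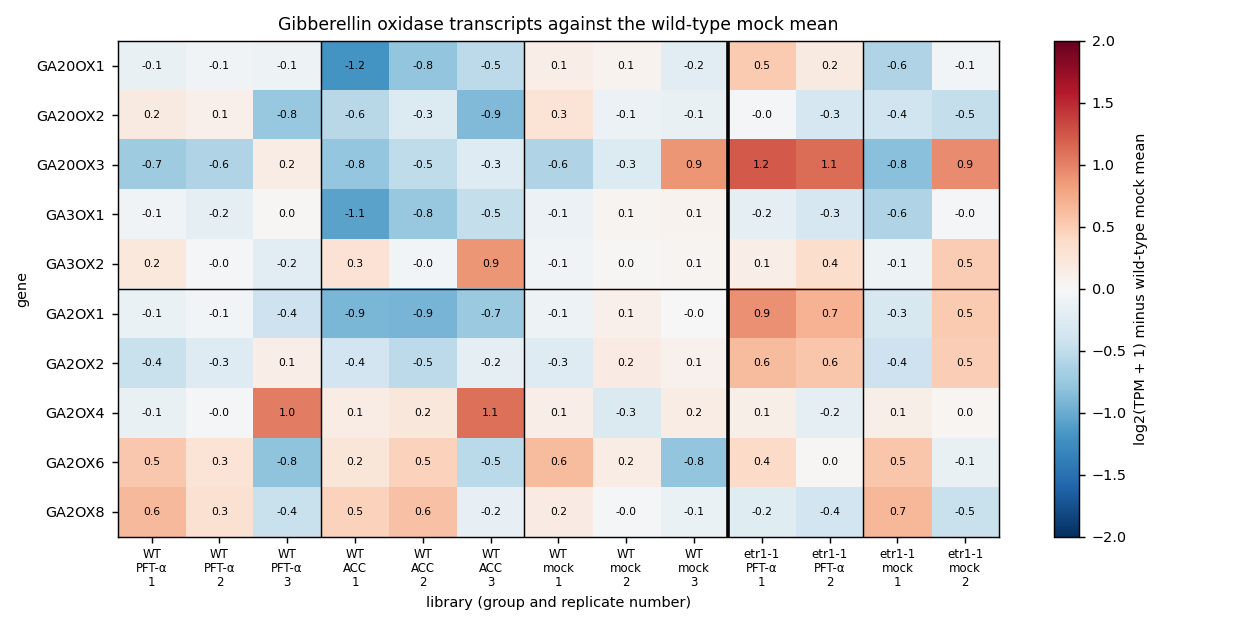
Each cell gives log2(TPM + 1) of a gene (rows) in a library (columns, by group and replicate number) minus the mean of the 3 wild-type mock libraries, on a colour scale from blue (lower) to red (higher). GA20OX1, GA3OX1 and GA2OX1 are blue in all 3 ACC libraries, and GA20OX3, GA2OX1 and GA2OX2 are red in both etr1-1 PFT-alpha libraries and in etr1-1 mock 2, while these 3 are blue in the library labelled etr1-1 mock 1.

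In mock the comparison of etr1-1 with wild type rests on 2 libraries that differed from each other. In the library labelled etr1-1 mock 1 GA20OX3, GA2OX1 and GA2OX2 measured 0.04, 0.60 and 2.33 TPM, and in etr1-1 mock 2 they measured 2.58, 1.87 and 5.21 TPM. Wild-type mock gave 0.23 to 2.41, 0.88 to 1.16 and 2.72 to 3.98 TPM for the same 3 genes. The library labelled etr1-1 mock 1 lay within the range of ACC-treated wild type for 4 of 10 members (GA20OX1, GA20OX2, GA3OX1 and GA2OX2) and within that of wild-type mock for 2 (GA2OX4 and GA2OX6). Over all tested genes it lay within the ACC range for 70.6% and within the mock range for 59.8%. No member passed in the all-library limma fit, which called 6 genes (0.0284%), with 0 members and 460 genes at an unadjusted p under 0.05. The difference between etr1-1 and wild type in mock was 0.05 for GA20OX3, 0.09 for GA2OX1 and 0.04 for GA2OX2 with both libraries. Without the library labelled etr1-1 mock 1 it was 0.95, 0.52 and 0.49, toward the values found under PFT-alpha, and that of GA2OX8 was -0.45 in place of 0.10. Without the 3 wild-type replicate 3 libraries, and with both etr1-1 libraries, no member passed and the differences were 0.49 for GA20OX3, 0.09 for GA2OX1 and 0.08 for GA2OX2. In the reduced fit, where the etr1-1 mock group keeps 1 library whose spread is taken to be that of the rest, the difference of GA20OX3 was 1.23 (SE 0.31, adjusted p = 0.105), and no member passed, where 1.34% of tested genes did. GA20OX2 was the 1 member that did not overlap, with 8.09 and 7.58 TPM in etr1-1 mock and 9.81 to 13.4 TPM in wild-type mock. Its difference was -0.43, and 11.4% of tested genes did not overlap.

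PFT-alpha against the mock within etr1-1 depended on the same library. GA20OX1 measured 29.5 and 23.1 TPM in etr1-1 under PFT-alpha, against 12.9 and 19.3 TPM in etr1-1 mock 1 and 2. GA20OX2, GA20OX3, GA2OX1 and GA2OX2 were also higher under PFT-alpha without overlap, which made 5 of 10 members, against 13.4% of tested genes higher without overlap and 37.9% in either direction. In the all-library limma fit no member passed and 3 genes did (0.0142%), with 2 members and 418 genes at an unadjusted p under 0.05. The differences were 0.69 for GA20OX1, 0.71 for GA2OX1, 1.12 for GA20OX3 and 0.56 for GA2OX2. Without the library labelled etr1-1 mock 1 they were 0.41, 0.29, 0.23 and 0.11. The test of whether PFT-alpha acted differently in the 2 genotypes called no member and 1 gene (0.00474%, limma), with 2 members and 333 genes at an unadjusted p under 0.05. Its estimates were 0.79 for GA20OX1 (SE 0.31), 0.91 for GA2OX1 (SE 0.36) and 1.51 for GA20OX3 (SE 0.77), and 0.52, 0.49 and 0.61 in the reduced fit. Without the 3 wild-type replicate 3 libraries they were 0.90, 0.81 and 1.34, and no member passed.

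Summed by role, the 5 synthesis transcripts came to 59.2 ± 1.68 TPM under PFT-alpha, 37.8 ± 6.55 TPM under ACC and 64.0 ± 1.16 TPM in mock in wild type (SD, n = 3 each). The ACC libraries held 30.7, 38.8 and 43.7 TPM, all below the mock range of 62.7 to 64.9 TPM and the PFT-alpha range of 57.8 to 61.1 TPM. In etr1-1 the sums were 70.9 and 59.9 TPM under PFT-alpha and 41.5 and 60.8 TPM in mock 1 and mock 2. GA20OX1 and GA3OX1 together made up 73.4 to 87.0% of the synthesis sum. The 5 inactivation transcripts summed to 43.4 ± 14.7 TPM under PFT-alpha, 42.8 ± 11.3 TPM under ACC and 43.0 ± 16.2 TPM in mock in wild type (SD, n = 3 each), and GA2OX6 made up 67.7 to 87.9% of the sum. Without GA2OX6 the inactivation sum was 7.16 to 8.75 TPM under PFT-alpha, 6.67 to 8.15 TPM under ACC and 7.09 to 7.61 TPM in mock in wild type. In etr1-1 it was 9.84 and 11.3 TPM under PFT-alpha and 7.65 and 9.30 TPM in mock. The ratio of synthesis to inactivation transcripts was 1.095, 1.24 and 2.13 under PFT-alpha, 0.674, 0.739 and 1.44 under ACC and 1.11, 1.46 and 2.39 in mock in wild type. Within each replicate number the ACC library had the lowest ratio of the 3, although the groups overlapped because of replicate 3. These sums describe transcripts and not enzyme activity, and no test was made on them. They cover the 10 members only and leave out GA2OX9 and CYP714A1, whose levels are given below.

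**Figure D4:**
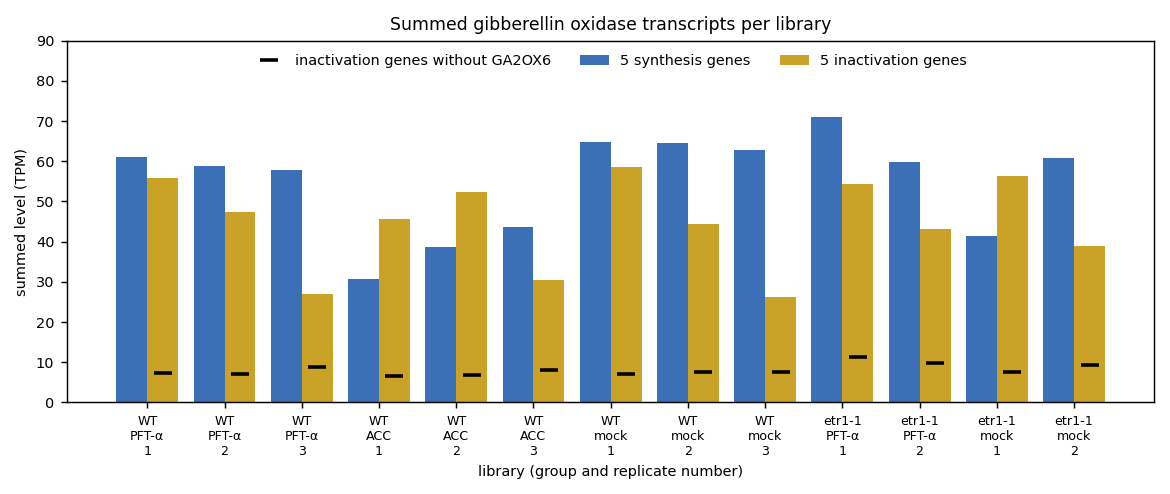
Summed TPM (vertical axis, from 0) of the 5 synthesis genes (blue bars) and the 5 inactivation genes (yellow bars) in each library, with black dashes for the inactivation genes without GA2OX6. The synthesis sums of the 3 ACC libraries lie at 30.7 to 43.7 TPM, below the other wild-type libraries, and the inactivation sums are lowest in the wild-type libraries numbered 3, at 26.3 to 30.4 TPM.

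The wild-type libraries numbered 3 differed from numbers 1 and 2 for several members in all 3 treatments. GA2OX6 measured 18.3 TPM under PFT-alpha, 22.3 TPM under ACC and 18.7 TPM in mock in replicate 3, against 36.7 to 51.4 TPM in the other 6 wild-type libraries. It lay lower than the mean of replicates 1 and 2 by 1.22 under PFT-alpha, 0.89 under ACC and 1.17 in mock on the log2 scale, shifts larger than the differences of 0.00 and 0.05 between PFT-alpha or ACC and mock for that gene. GA20OX2 and GA2OX8 were lower in replicate 3 in all 3 treatments as well, and GA20OX3, GA3OX1 and GA2OX4 were higher. Being lowest in all 3 groups applied to 3 of 10 members and 35.7% of tested genes, and being highest to 3 of 10 members and 20.1% of tested genes. The members' counts are thus near those of the whole table. The low root hair and high photosynthetic marker sums of these libraries, given above, moved with these values. Seed storage and oil body markers also summed highest in replicate 3, at 1655 TPM under PFT-alpha, 2746 TPM under ACC and 2016 TPM in mock. Replicates 1 and 2 of wild type had 231 to 721 TPM. Over all libraries these sums did not stand apart, with 317 and 3975 TPM in etr1-1 mock 1 and 2. The part of these marker sums was not tested.

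The rest of the gibberellin pathway was read from the same fits. Of 5 early synthesis genes 4 were tested, and none passed in ACC against mock in the all-library or the paired limma fit. GA3, which encodes ent-kaurene oxidase, measured 48.6, 38.2 and 38.9 TPM under ACC, against 32.4, 32.2 and 45.5 TPM in mock. KAO1 and KAO2, which encode ent-kaurenoic acid oxidases, differed by 0.11 and 0.00 between ACC and mock in the paired fit, with KAO2 at 21.5 to 36.02 TPM under ACC and 20.6 to 42.7 TPM in mock. Of 8 other gibberellin oxidase genes 2 passed the filter (GA2OX7 and GA2OX9) and neither was called. GA2OX9 had group means of 10.9 to 11.6 TPM, above every inactivation member but GA2OX6. GA3OX4, which lies 928 bases from GA3OX2, and GA3OX3 were listed at 0 in all 13 libraries. Of 5 other genes that inactivate or modify gibberellin only CYP714A1 passed the filter, and it was not called. Its group means were 33.0 to 38.9 TPM, near those of GA2OX6 (35.6 to 39.1 TPM). Transport was represented by NPF3.1 alone of 3 genes, also not called.

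Of 12 genes of perception and signalling 11 were tested, and in ACC against mock 0 rose and 1 fell in the paired limma fit, in which 1.57% of all tested genes rose and 3.93% fell. That gene was GAF1, which encodes a transcription factor that works with the DELLA repressors of gibberellin signalling in activating synthesis genes such as GA20OX2. GAF1 measured 8.30, 8.95 and 11.97 TPM under ACC, against 12.2, 15.2 and 15.4 TPM in mock, a difference of -0.52 (SE 0.10, adjusted p = 0.034). GID1B, a gibberellin receptor gene, measured 24.7, 23.4 and 14.9 TPM under ACC and 25.0, 20.7 and 12.1 TPM in mock, and SCL3, a gene acting with the DELLA proteins, 41.9, 42.5 and 29.7 TPM under ACC and 37.6, 35.2 and 27.2 TPM in mock. Neither passed. Of 5 members of the GASA family, small secreted proteins many of which respond to gibberellin, all were tested, 1 rose and 1 fell in the same fit. GASA14 measured 466, 575 and 813 TPM under ACC, against 323, 277 and 297 TPM in mock, and rose by 1.01 (SE 0.18, adjusted p = 0.0233). GASA6 measured 115, 82.8 and 93.0 TPM under ACC, against 182, 215 and 189 TPM in mock, and fell by 1.02 (SE 0.14, adjusted p = 0.00954). None of GAF1, GASA14 and GASA6 passed in the all-library fit, where their adjusted p was 0.44, 0.36 and 0.51. In PFT-alpha against mock no gene of these lists passed.

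Under PFT-alpha 2 genes of these lists were higher in etr1-1 than in wild type in the reduced limma fit, and in neither the all-library nor the block fit. RGL2, a DELLA gene known for its role in seeds, measured 5.06 and 4.93 TPM in etr1-1, against 1.64, 1.28 and 1.60 TPM in wild type (difference 1.38, SE 0.17, adjusted p = 0.00219). The same fit called 2.35% of all tested genes higher. GASA6 measured 415 and 574 TPM in etr1-1, against 161, 172 and 134 TPM in wild type (difference 1.60, SE 0.18, adjusted p = 0.00132). In mock RGL2 measured 1.33 and 5.78 TPM and GASA6 109 and 479 TPM in etr1-1 mock 1 and 2, against 1.88 to 3.63 TPM and 182 to 215 TPM in wild-type mock. With both libraries the differences were 0.20 for RGL2 and 0.23 for GASA6, and neither passed in the all-library fit. On etr1-1 mock 2 alone the reduced fit gave 1.09 (adjusted p = 0.0448) and 1.24 (adjusted p = 0.0298), and it called 0.759% of tested genes higher.

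The order of the group means, in which etr1-1 mock includes the library labelled etr1-1 mock 1, differed between members. For GA20OX1 it ran from etr1-1 PFT-alpha (26.3 TPM) through wild-type mock (20.3 TPM), wild-type PFT-alpha (18.8 TPM) and etr1-1 mock (16.1 TPM) to wild-type ACC (11.1 TPM). Only the first of these groups stood clear of its neighbour, and the other neighbours overlapped. For GA3OX1 it ran from wild-type mock (31.0 TPM) through wild-type PFT-alpha (29.2 TPM), etr1-1 PFT-alpha (25.5 TPM) and etr1-1 mock (25.0 TPM) to wild-type ACC (18.0 TPM), with a gap only between wild-type PFT-alpha and etr1-1 PFT-alpha. With etr1-1 mock 2 alone, the etr1-1 mock values would be 19.3 TPM for GA20OX1, above the mean of wild-type PFT-alpha, and 30.1 TPM for GA3OX1, next after wild-type mock. For GA2OX1 it ran from etr1-1 PFT-alpha (2.52 TPM) through etr1-1 mock (1.24 TPM, or 1.87 TPM in mock 2 alone), wild-type mock (1.01 TPM) and wild-type PFT-alpha (0.76 TPM) to wild-type ACC (0.103 TPM), with gaps at both ends of the order. Wild-type ACC was the lowest group of 5 for GA20OX1, GA20OX2, GA20OX3, GA3OX1, GA2OX1 and GA2OX2. Among these genes it stood clear of the next group for GA2OX1 only. It was the highest for GA3OX2, GA2OX4 and GA2OX8, where it overlapped the next group.

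Some members varied together over the libraries, which share treatments, replicate numbers and depth. The Pearson correlation of log2(TPM + 1) over 13 libraries was 0.92 for GA20OX3 with GA2OX2, 0.87 for GA20OX1 with GA2OX1 and 0.80 for GA20OX1 with GA3OX1. Over the 10 libraries without wild-type replicate 3 it was 0.95, 0.90 and 0.85. Other members moved in opposite directions. GA2OX8 correlated at -0.88 with GA2OX2 and at -0.82 with GA20OX3 over 13 libraries, and at -0.96 and -0.90 over the 10. Among all tested genes the one most like GA2OX1 was AT4G22200 (KT2/3 in the table), with a correlation of 0.979 over 13 libraries and 0.983 over 10, the highest in both sets. Over 13 libraries VIT1 was most like GA20OX1 (0.97), LPAT2 most like GA3OX1 (0.966) and PEN2 most like GA2OX6 (0.986). Over the 10 libraries they ranked only 8, 37 and 10. For GA20OX2 the gene most like it over 13 libraries was AT1G04040 (0.954), for GA20OX3 AT1G78780 (0.964), for GA2OX2 AT4G27530 (0.969) and for GA2OX8 AT5G49015 (0.955). Over the 10 libraries these ranked 29, 4, 17 and 35. For GA2OX4 it was AT4G28990, at 0.959 over 13 libraries and 0.784 over the 10 without wild-type replicate 3.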

How the data were processed

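Processed data of 13 libraries were used. The deposited table holds TPM for 33033 genes, named so per the file headers, and 5 further columns of group means, left unused. The submitters' processing notes name RSEM, StringTie, HISAT, HISAT2, fastp and DESeq2 and the TAIR10 build, without versions or roles. A stranded kit was used, per the labels' protocols, and strand use in counting is not stated. Depth was estimated from the steps of low TPM values multiplied by length, of which 71.9 to 81.6% lay within 0.15 of a whole fragment.

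Groups came from the labels. Genes reaching 1 TPM in 2 or more libraries were fitted on log2(TPM + 1) in R 4.3.3 by limma 3.58.1 with its trend option, two-sided, with Benjamini-Hochberg adjustment over all tested genes and a threshold of 0.05. The design named first was a mean for each of 5 groups over 13 libraries. Other fits took the replicate number as a block over 13 libraries, paired the 9 wild-type libraries by number, or left out the library labelled etr1-1 mock 1 with a term for wild-type replicate 3 (the reduced fit). In wild type, libraries of the same number had deviations from their group means that correlated at 0.28 to 0.77 in each of 9 pairs, so the numbers were taken to pair them. Libraries 1 and 2 of different number correlated as highly (0.29 to 0.54, against 0.28 to 0.55 for the same number), so the data set only replicate 3 apart, and the pairing of numbers 1 and 2 is an assumption. For same-numbered etr1-1 and wild-type libraries they correlated at -0.22 to 0.24, and for the etr1-1 pair at 0.13. Further alternatives were library weights, pseudocount 0.1, no filter or a filter of 5 TPM, median-of-ratios and quantile scaling, and leaving out each library. The code was tested on simulated data.

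All 10 members were named, with listed pathway genes that passed in a comparison, 5 genes next to the members in the pathway and the genes most like a member. The members and lists were chosen with earlier results of these data known. Genes were matched by locus, GA2OX1 is ATGA2OX1 in the table, and GA2OX9, GASA14 and NPF3.1 have no symbol there. Exons, promoters and overlaps came from RefSeq TAIR10.1, and the table prints no coordinates. Python 3.11.15, numpy 2.4.6, pandas 2.3.3 and matplotlib 3.10.9 made the tables and figures.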

Additional observations from a re-analysis of the deposited data

How the results depend on the processing

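Over 26 settings, including the fits described above, 1625 single-gene differences were recomputed. No member had passed in the all-library fit, so no call could be lost or reversed: 29 differences newly passed and 102 changed sign where neither value passed. All 20 differences of at least 0.5 in the all-library fit kept their sign. The all-library fit called 0 members in each of 7 comparisons. With library weights it called 3 for ACC against mock, 3 for PFT-alpha against ACC and 5 for etr1-1 against wild type under PFT-alpha, and in the reduced fit 3, 2 and 3. Leaving out 1 library at a time called members only for ACC against mock, and none for the other 6 comparisons. These were GA3OX1 and GA2OX1, without either etr1-1 mock library. Far more of all tested genes were then called as well, so the change was not particular to the members. Where leaving out a library left an etr1-1 group with 1 library, its spread was taken to be that of the rest. The filter of 5 TPM left 5 of the members to be tested. Chosen after seeing the data, the paired fit without replicate 1, 2 or 3 called 0, 0 and 1 members for ACC against mock. Scaling moved the median of all genes by less than 0.1. The cause of these changes was not tested.

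With the replicate number as a block over 13 libraries 1 member (GA3OX1, adjusted p = 0.030, limma) was called for ACC against mock, and GA20OX1 (0.053) and GA2OX1 (0.075) were not. The pairing of the 9 wild-type libraries gave 3 for ACC against mock and 1 for PFT-alpha against ACC, and changed no call for PFT-alpha against mock. Depth limits GA2OX1, GA20OX3 and GA3OX2, which rest on few fragments in several libraries.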
